A study of Mus musculus with 2 samples.

Results

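Acyl-CoA thioesterases split a fatty acyl-CoA into the free fatty acid and coenzyme A, and their genes carry the symbol Acot. The family was taken by symbol as the 9 genes Acot1, Acot2, Acot3, Acot4, Acot8, Acot9, Acot11, Acot12 and Acot13. Of these, 7 were among the 8551 genes with values in the mouse liver tag profiles examined here, and Acot1 and Acot9 were not analysed here. No measured value entered the choice, but earlier results of these data were known when it was made.

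The reaction runs against that of the acyl-CoA synthetases, which load a fatty acid onto coenzyme A before it can be oxidised or built into lipid. The mouse genes fall into a pair of unrelated protein groups. Type I genes (Acot1 to Acot6) lie side by side on chromosome 12 and encode similar enzymes sent to the cytosol, the mitochondria or the peroxisome, and several of them are textbook targets of PPARalpha, the nuclear receptor that fatty acids activate in the liver. Type II enzymes (among them Acot7 to Acot13) share a hotdog fold and are spread over other chromosomes. In the compartments, thioesterases are thought to set free coenzyme A for further rounds of oxidation and to end the oxidation of some chains.

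The profiles compared the liver of normal and of type 2 diabetic mice. Both groups were male mice on a C57BL/6 background, killed at 9 weeks of age about 3 h into the light phase with free access to chow, and they differed in genotype, wild type in the normal group and db/db in the diabetic group. db/db mice lack a working leptin receptor in all tissues from birth, overeat and become obese and diabetic, so obesity and diabetes cannot be told apart here. There was 1 library per group, the sources used here do not say how many livers went into it or which genotype came from which of the suppliers, and no difference below has a replicate check.

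Poly(A) RNA was turned into cDNA and cut with DpnII, and a short tag beside a cut site was sequenced. Values are TPM, here the tags of a gene per 1000000 clean tags of its library, with no division by gene length. By the steps between the values, the normal library comprised 10278531 clean tags and the diabetic one 13508232, so 1 read was worth 0.0973 and 0.0740 TPM. Genes with values took up 37.1% of all tags of normal liver and 44.4% of those of diabetic liver, and the median listed gene was 0.25 higher in the diabetic library on the log2 scale. By the calling rule given below, 22.9% of all listed genes were called higher and 8.19% lower. Hepatocyte markers summed to 15050 TPM in the normal and 15765 TPM in the diabetic library, with 2 of the 8 called higher and 2 called lower. The summed level of the 7 macrophage markers with values was 261.8 and 130.7 TPM, with 1 called higher and 4 called lower. Among them C1qa fell from 176.48 to 50.71 TPM, while C1qb rose from 38.14 to 57.82 TPM. The 8 endothelial markers summed to 118.6 and 106.5 TPM, with 1 called higher and 1 called lower. The 3 cholangiocyte markers summed to 61.5 and 107.3 TPM. Most of that was Spp1, at 57.21 and 103.12 TPM, while Krt7 and Epcam were not called. The adipocyte genes Cfd and Fabp4, the 2 of 7 fat cell markers with values, summed to 9.05 and 38.4 TPM. Cfd, at 0.49 and 11.84 TPM, was listed only through its diabetic level and so had to differ. Fabp4 was at 8.56 and 26.58 TPM. The fat cell hormone genes Adipoq and Lep were not analysed here. The part of cell composition in the values below was not tested, and in bulk liver fewer cells of a type and less RNA per cell cannot be told apart.

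A tag names a gene only where no other gene holds the same tag, and the type I genes are close copies of each other. In the GENCODE M21 transcripts (GRCm38), the coding sequences of the 6 type I genes matched each other at 67.0 to 85.6% of aligned positions over 15 pairs, with a median of 74.7%. Acot1 and Acot2 were the closest of these pairs at 85.6%, and Acot9 and its relative Acot10 matched at 97.2%. The tags next to the last DpnII site of each transcript, which a tag profile reads most often, are shown because they are what separates the members; each is 20 bases long, a length assumed here, and the capitals mark the DpnII site.
Acot1, 3′ UTR: GATCctgggttcaatccagc
Acot2, 3′ UTR: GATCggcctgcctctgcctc
Acot3, 3′ UTR: GATCtctgcaagttggaagc
Acot4, 3′ UTR: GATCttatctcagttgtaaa
Acot8, coding: GATCcgattgaagcctcagg
Acot9, 3′ UTR: GATCggaagagcagaatgag
Acot11, 3′ UTR: GATCaagaggcaccagccat
Acot12, 3′ UTR: GATCtaccttacccaggatg
Acot13, coding: GATCtgaccaacaagaccac

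Each of these last tags was found in 1 gene only. The Acot2 tag was within 1 mismatch of tags in 154 other genes and the Acot4 tag within 1 mismatch of tags in 2 other genes, whereas those of the other members were not within 1 mismatch of any. Counting every site, Acot2 had 5 tags and only 1 of them was its own, and the other 4 were shared with Acot1, Acot3, Acot4 or Acot5. Acot1 had 2 of 5 tags of its own and shared 3 with Acot2. Acot3 had 5 of 8 and Acot4 13 of 16 tags of their own. All 5 tags of Acot8, all 10 of Acot11, all 8 of Acot12 and all 4 of Acot13 were found in no other gene. Of 7215 listed genes with a DpnII site, 79.7% had every tag in 1 gene, which the type I members did not. One of the shared Acot4 tags was held by 32 genes. How the authors counted tags held by several genes, and how many mismatches they allowed, is not given in the sources used here. The single values of Acot2, Acot3 and Acot4 are therefore uncertain in how reads were split among the type I genes. An Acot3 tag was also held by a gene outside the family. For Acot2, Acot3 and Acot4, reads of genes outside the family may also have entered.

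**Figure D1:**
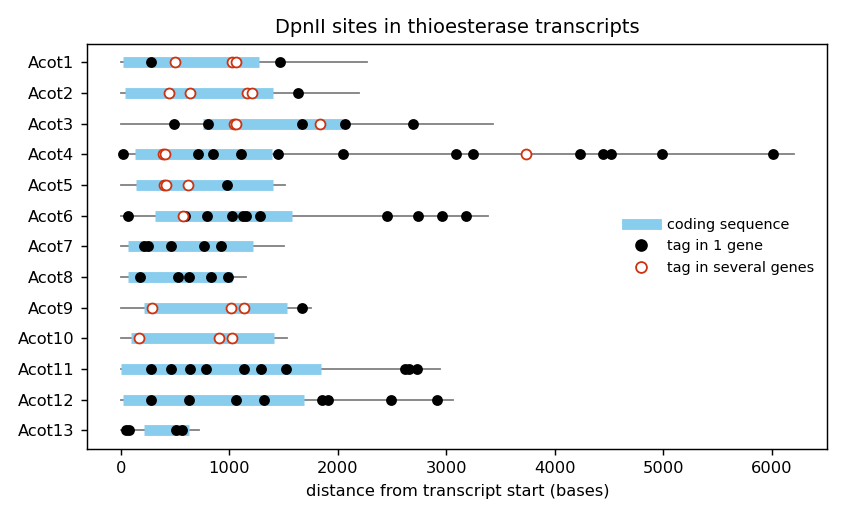
DpnII sites along the longest-coding GENCODE M21 transcript of 13 thioesterase genes, as distance from the transcript start in bases. The blue bar is the coding sequence, filled points are sites whose tag is in 1 gene and open points sites whose tag is in several genes; the type I genes Acot1 to Acot6 hold open points, whereas Acot7, Acot8, Acot11, Acot12 and Acot13 hold none.

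By the rule used here a gene was called when it differed at least 1.5-fold with a false discovery rate (FDR) under 0.001 in an exact two-sided binomial test on its reads, adjusted by Benjamini-Hochberg over all 8551 genes. This test compares the libraries, not the conditions. Of the 7 members, 5 were called higher in the diabetic library and 0 lower, against 22.9% of all listed genes called higher and 8.19% called lower. Under 4 other scalings of the libraries, 4 to 5 members were called higher, against 13.3 to 14.9% of all genes called higher and 13.4 to 14.8% called lower. With an assumed variation between samples of 20%, an alternative chosen after the data had been seen, 3 members were called, namely Acot2, Acot3 and Acot4. The calls of Acot13 and Acot8 ended, and of all 8551 genes 343 were called higher and 111 lower. With 40%, 2 members were called, Acot2 and Acot3, beside 36 genes higher and 19 lower in all. The 5 members called by the main rule were also those past the fold of 1.5 alone. Of the listed genes, 34.4% were past it in the higher and 15.3% in the lower direction. The median log2 ratio of the 7 was 1.27. One of the 5, Acot2, had a normal level under 1 TPM and could be listed only through its diabetic level, so it had to differ. At their normal levels, Acot3 and Acot4 could be listed only at a ratio of at least 0.709 and 0.869. A call as lower was therefore not open to Acot2, Acot3 or Acot4, which limits what the 0 says. Of the 6 members at 1 TPM or more in the normal library, 4 were called higher, and the share of all genes at that level is not given here.

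The mitochondrial members were a rare type I gene and the most abundant type II gene. Acot2 (gene identifier 171210), which encodes the mitochondrial type I enzyme for long acyl chains, was at 0.49 TPM (5 reads) in the normal and 10.51 TPM (142 reads) in the diabetic library. The diabetic library was far above the normal one, and their counting intervals of 0.158 to 1.14 TPM and 8.85 to 12.4 TPM did not meet. Acot2 rose 21.4-fold, a log2 ratio of 4.42 with a 95% interval of 3.18 to 6.08, which was rank 53 of the 8551 ratios. At its normal level Acot2 had to reach 1.51 TPM in the diabetic library, 3.08-fold more, to be listed at all. Intervals here and below cover counting error only, since the tags carry no molecular identifiers and may be PCR copies.

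Acot13 (66834), a small hotdog enzyme bound to mitochondria and also reported in the cytosol, was the member with the most tags. It had 74.52 TPM (766 reads) in the normal and 179.15 TPM (2420 reads) in the diabetic library. The diabetic level was the higher one, at rank 412 of the listed genes against rank 754 in the normal library. The log2 ratio was 1.27 with a 95% interval of 1.15 to 1.38, a rise of 2.40-fold.

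The peroxisomal members were 2 rare type I genes and a common type II gene, and all 3 rose. Acot3 (171281), a peroxisomal type I enzyme for long chains, was at 1.17 TPM (12 reads) in the normal and 20.95 TPM (283 reads) in the diabetic library. Acot4 (171282), a peroxisomal type I enzyme known for cutting succinyl-CoA and other dicarboxylic acyl-CoAs, was at 1.07 TPM (11 reads) and 9.55 TPM (129 reads). Both genes were close to the lower end of what the table lists in normal liver, at ranks 7896 and 7977, and well inside it in diabetic liver, at ranks 2386 and 3917. Acot3 rose 17.9-fold, with a log2 ratio of 4.16 and an interval of 3.34 to 5.14. Acot4 rose 8.93-fold, with a log2 ratio of 3.16 and an interval of 2.27 to 4.20.

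Acot8 (170789), a peroxisomal type II enzyme with a broad range of substrates that include bile acid CoA esters, was at 42.61 TPM (438 reads) in the normal and 77.66 TPM (1049 reads) in the diabetic library. The diabetic library was again the higher one, and the log2 ratio of 0.87 had an interval of 0.70 to 1.03. This 1.82-fold rise stood at rank 1951 of the 8551 ratios, below that of each type I member. With the libraries scaled by the median ratio of their genes, the log2 ratio was 0.56 and Acot8 fell under the fold of 1.5.

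The cytosolic members were not called. Acot12 (74156), a cytosolic enzyme of the liver that cuts acetyl-CoA, was at 25.49 TPM (262 reads) in the normal and 37.98 TPM (513 reads) in the diabetic library. The log2 ratio of 0.58 came with an interval of 0.36 to 0.80, and the 1.49-fold difference lay just inside the fold of 1.5 although the FDR of the exact binomial test was 4.6e-07. Acot11 (329910), also called Them1, a long-chain enzyme best known from brown fat, was at 2.14 TPM (22 reads) and 2.22 TPM (30 reads). Its levels were nearly the same, and the log2 ratio of 0.05 had an interval of -0.79 to 0.92 that leaves room for a change of size in either direction. The sign of the Acot11 ratio turned under each of 4 other scalings, to between -0.25 and -0.20.

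**Figure D2:**
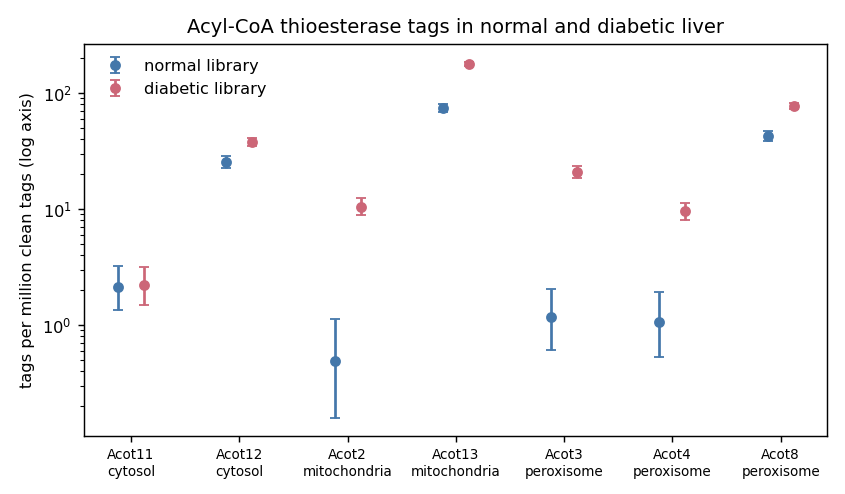
Level of each of the 7 members in the normal and the diabetic library, in TPM on a log axis, with 95% Poisson counting intervals. Acot2, Acot3 and Acot4 lie between 0.49 and 1.17 TPM in normal liver and between 9.55 and 20.95 TPM in diabetic liver, while the pair of points of Acot11 overlaps.

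The order of the members by counted tags changed between the libraries. In the normal library it ran Acot13, Acot8, Acot12, Acot11, Acot3, Acot4 and Acot2. The intervals of the first 3 did not overlap, whereas those of Acot11 (1.34 to 3.24 TPM), Acot3 (0.603 to 2.04 TPM) and Acot4 (0.534 to 1.91 TPM) overlapped each other, and that of Acot2 overlapped those of Acot3 and Acot4. In the diabetic library the order was Acot13, Acot8, Acot12, Acot3, Acot2, Acot4 and Acot11. There the intervals of Acot2 and Acot4 (7.97 to 11.3 TPM) overlapped, and Acot11 was the member with the fewest tags. These are orders of tags, since the values depend on which sites of a transcript give a tag that can be assigned.

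The ratio between a pair of members within a library does not depend on how the libraries are scaled, so the members' log2 ratios were also compared with each other. The differences between Acot2 and the type II members are not read here, since the listing of Acot2 alone placed its ratio above theirs. Of the 15 pairs without Acot2, 12 differed by more than the counting interval of their difference. Acot3 and Acot4 stood above each of the 4 type II members in these differences. Acot3 exceeded Acot8 by 3.30, with an interval of 2.45 to 4.28, and Acot4 exceeded Acot8 by 2.29, with an interval of 1.38 to 3.34, within the peroxisome. Among the type II members, Acot13 exceeded Acot8 by 0.40 (0.20 to 0.60) and Acot8 exceeded Acot12 by 0.29 (0.02 to 0.56).

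Among the type I members every interval held 0. Acot2 minus Acot3 was 0.26 (-1.38 to 2.15), Acot2 minus Acot4 was 1.26 (-0.42 to 3.19) and Acot3 minus Acot4 was 1.00 (-0.36 to 2.36). These widths leave room for differences of severalfold among the 3 type I genes, and 5 to 12 reads in the normal library set them. Intervals that held 0 were also those of Acot11 with Acot8 and with Acot12, at 22 reads of Acot11 in the normal library.

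**Figure D3:**
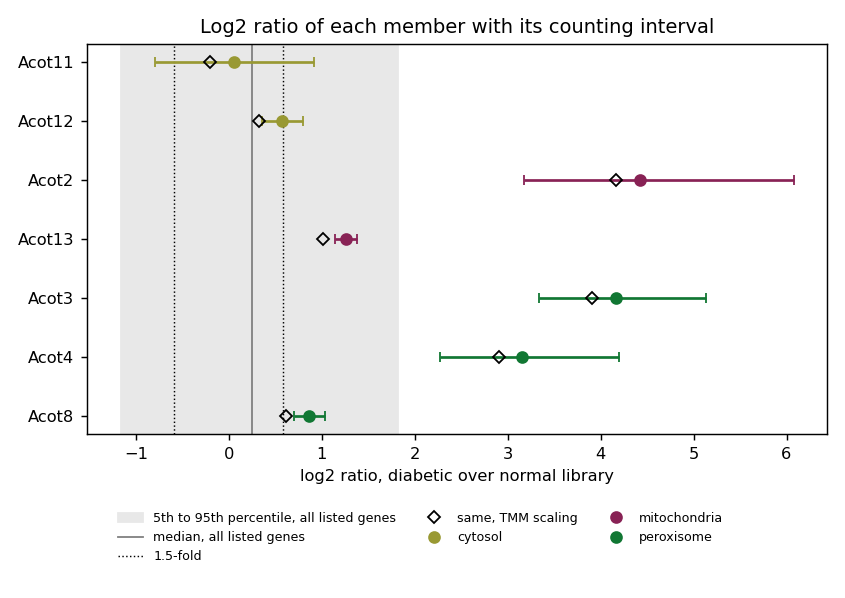
Log2 ratio, diabetic over normal library, of the 7 members with 95% Clopper-Pearson counting intervals, coloured by compartment. Diamonds give the same ratio with TMM scaling, the grey band is the 5th to 95th percentile of all listed genes (-1.16 to 1.82), the grey line their median of 0.25 and the dotted lines a fold of 1.5; the 3 type I members lie beyond the band.

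The family as a whole gave 147.5 TPM (1516 reads) in the normal and 338.0 TPM (4566 reads) in the diabetic library. That is 2.29-fold more, a log2 ratio of 1.20 with an interval of 1.11 to 1.28. By compartment, the cytosolic members summed to 27.6 and 40.2 TPM, a log2 ratio of 0.54 (0.33 to 0.75). The mitochondrial members summed to 75.0 and 189.7 TPM, a log2 ratio of 1.34 (1.22 to 1.46). The peroxisomal members summed to 44.9 and 108.2 TPM, a log2 ratio of 1.27 (1.12 to 1.42). As placed here, the intervals of the mitochondrial and peroxisomal sums overlapped and that of the cytosolic sum lay lower. Both cytosolic members were type II, whereas every type I member with values was mitochondrial or peroxisomal, so this order mixes compartment and type. The order also rests on Acot13. With Acot13 in the cytosol, the cytosolic sum was 2.15-fold higher, a log2 ratio of 1.10 (1.00 to 1.21). The mitochondria were then left with Acot2 alone, which had to differ.

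Within the family, the share of tags from cytosolic members was 18.7% (95% Wilson interval 16.8 to 20.8%) in the normal and 11.9% (11.0 to 12.9%) in the diabetic library. The mitochondrial share was 50.9% (48.3 to 53.4%) and 56.1% (54.7 to 57.5%). The peroxisomal share was 30.4% (28.1 to 32.8%) and 32.0% (30.7 to 33.4%), intervals that overlap. The mitochondrial share rests on Acot13. Counted with the cytosol, where it is also reported, Acot13 takes the cytosolic share to 69.3% and 64.9% and leaves 0.330% and 3.11% to the mitochondria. That remainder is Acot2 alone, which had to differ.

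The make-up by type also differed between the libraries. Type I members gave 28 reads, 2.73 TPM, in the normal and 554 reads, 41.0 TPM, in the diabetic library. Their share of the family's tags was 1.85% (1.28 to 2.66%) in normal liver and 12.1% (11.2 to 13.1%) in diabetic liver. Acot2 is part of this share, and the share without it is not given here. The type I sum was 15.0-fold higher, a log2 ratio of 3.91 (3.36 to 4.52), and 13.6-fold higher without Acot2, which had to differ. Moving reads among Acot2, Acot3 and Acot4 would leave the sum of the 3 as it is. Tags that belong to Acot1, Acot5, Acot6 or genes outside the family, or tags counted for several genes, would not. The type II sum was 2.05-fold higher, from 144.8 to 297.0 TPM, a log2 ratio of 1.04 (0.95 to 1.12). In absolute terms most of the added tags were therefore of type II, and most of those were Acot13.

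**Figure D4:**
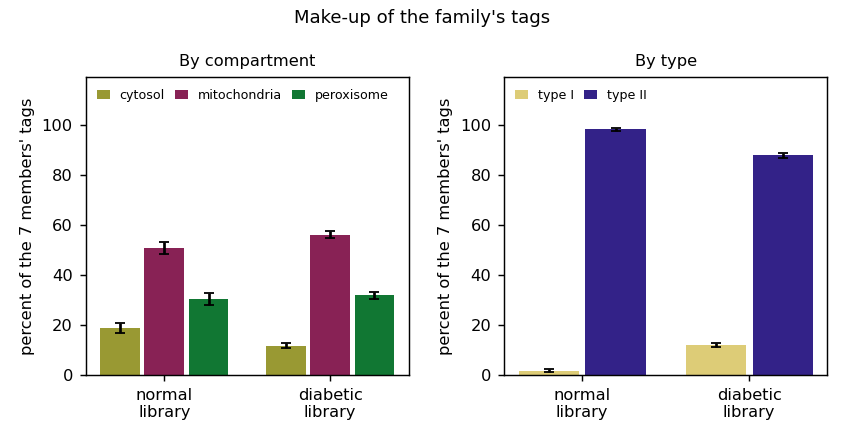
Share of the 7 members' tags in each library, in percent, by compartment (left) and by type (right), with 95% Wilson intervals. The cytosolic share is 18.7% in the normal and 11.9% in the diabetic library, and the type I share 1.85% and 12.1%. Acot2, which had to differ, is part of the type I and mitochondrial shares.

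The 3 type I members with values are neighbours. In the RefSeq annotation (GRCm38.p6) the 6 type I genes follow each other on chromosome 12 in the order Acot2, Acot1, Acot4, Acot3, Acot5 and Acot6, with no other protein-coding gene between them. Of the genes next to the cluster on either side, Riox1 had values. Riox1, which encodes a ribosomal oxygenase and lies beside Acot2, was at 1.65 TPM (17 reads) in the normal and 3.26 TPM (44 reads) in the diabetic library. With a log2 ratio of 0.98 (0.14 to 1.88), Riox1 was not called by the exact test. It was chosen after its values had been seen.

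PPARalpha binds, with its partner RXR, to a pair of AGGTCA half-sites in the same orientation with 1 base between them, called DR1. RefSeq promoter windows (GRCm38.p6) from 250 bases before to 50 after the start were searched on both strands for AGGTCA and for DR1 with up to 2 mismatches; a DR1 match overlaps its half-sites. Windows were found for 8 of the 9 members, all but Acot13. The stretches of 30 bases that hold a match are shown because 2 of the 3 type I members with values have one, with the half-site or repeat in capitals.
Acot4, chr12:84038358-84038387, plus strand: ccgaagcaTGACCTTTGGCCGgtctgtgcc
Acot3, chr12:84052150-84052179, plus strand: gttattagctctTGACCTtgtctgtctgct
Acot12, chr13:91741403-91741432, plus strand: taggacccTGACCTCTCACCTcctaagcac

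Acot4 had a half-site within a DR1 of 2 mismatches at position -13 from the start. Acot12, the cytosolic member that was not called, had a half-site within a DR1 of 1 mismatch at position -110. Acot3 had a half-site only, just past its start. All 3 lie on the strand opposite to the gene. Acot1, Acot2, Acot8, Acot9 and Acot11 had neither a half-site nor a DR1 with up to 2 mismatches in their windows. Of all 32851 windows, 16.3% held a half-site, 0.554% a DR1 with up to 1 mismatch and 3.86% one with up to 2. A match is a description of letters and not a bound site, and the window leaves out elements farther away.

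The genes around the thioesterases were described by counts from lists that also were chosen with earlier results known. Of 15 other thioesterases and relatives, 9 had values, 7 were called higher and 0 lower (22.9% and 8.19% of all genes), with a median log2 ratio of 0.90 against 0.25 for all genes. Lypla1, a protein depalmitoylase, rose from 125.31 to 224.83 TPM, Lypla2, its relative, from 7.59 to 15.84 TPM, and Hibch, the mitochondrial hydrolase of the valine pathway, from 38.14 to 85.43 TPM. Under the 4 other scalings 3 to 4 of the 9 were called higher, beside 13.3 to 14.9% of all genes, and the median was 0.60 to 0.65. Acot7, a cytosolic type II thioesterase named here after its values had been seen, rose from 5.35 TPM (55 reads) to 9.99 TPM (135 reads). By the main rule Acot7 was called higher, unlike the cytosolic members Acot11 and Acot12.

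Of 20 acyl-CoA synthetase genes, which serve the reverse reaction, 12 had values, 2 were called higher and 1 was called lower, and their median log2 ratio was 0.23, beside 22.9% and 8.19% of all genes called and the all-gene median of 0.25. Both the counts and the median were near those of all genes. Under other scalings the median lay between -0.08 and -0.03. Slc27a2, a very long chain synthetase and the most abundant of them, was at 532.66 and 773.45 TPM and was not called. Acsm1 and Acsm5, mitochondrial medium-chain synthetases, rose from 59.74 to 162.05 TPM and from 10.9 to 29.02 TPM. Acsl1, the main long-chain synthetase of liver, was at 115 and 134.81 TPM and was not called, and Acss2, which activates acetate, fell from 145.74 to 93.5 TPM. These last genes, Acsl1 and Acss2, were named after their values had been seen.

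The oxidation pathways take up acyl-CoA in both the mitochondria and the peroxisome. Over all listed genes, 22.9% were called higher and 8.19% lower, with a median log2 ratio of 0.25. In mitochondrial beta-oxidation 14 of 18 genes had values, 12 were called higher and 0 lower, with a median log2 ratio of 1.08. Cpt2, the inner membrane carnitine palmitoyltransferase, rose from 386.34 to 643.02 TPM, Dci, an enoyl-CoA isomerase, from 18.87 to 70.62 TPM, and Echs1, the short-chain enoyl-CoA hydratase, from 59.74 to 196.47 TPM. In peroxisomal oxidation 16 of 20 had values, 8 were called higher and 1 lower, with a median of 0.74. Ehhadh, the bifunctional enzyme, rose from 157.51 to 628.36 TPM and Ech1, a dienoyl-CoA isomerase, from 120.83 to 370.74 TPM, while Scp2, the sterol carrier thiolase, was at 2748.25 and 3258.24 TPM and was not called. Under the other scalings, 7 mitochondrial and 4 to 5 peroxisomal genes were called higher, beside 13.3 to 14.9% of all genes. The medians were then 0.78 to 0.83 and 0.44 to 0.49.

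Of PPARalpha, its partners and further targets, 14 of 21 genes had values, with a median log2 ratio of 1.45 against 0.25 for all genes. Of the 14, 10 were called higher and 1 lower, beside 22.9% and 8.19% of all listed genes. Cidea, Cidec and Pex11a of this list were under 1 TPM in the normal library, were listed only through their diabetic level and so had to differ. Of the 11 genes at 1 TPM or more in both libraries, 7 were called higher and 1 lower. Cyp4a14, a fatty acid omega-hydroxylase whose products are dicarboxylic acids, rose from 14.11 to 742.73 TPM, a log2 ratio of 5.72. Cd36, a fatty acid carrier of the cell surface, rose from 12.06 to 213.43 TPM, and Plin2, a lipid droplet coat protein, from 247.21 to 592.23 TPM. Ppara itself, named after its value had been seen, rose from 36.58 to 82.1 TPM. Cidea, with 0 reads in the normal library, was at least 24.1-fold higher against a floor of 3 reads, and placing it at that bound leaves the median at 1.45. The log2 ratios of Acot3 and Acot4, 4.16 and 3.16, lay beyond every gene with values in the synthetase and oxidation lists. Acot2 is left out of this, since it had to differ. In the PPARalpha list, genes at 1 TPM or more in both libraries ran from -1.07 to 5.72, too wide a range to liken a gene to the list. Whether PPARalpha acted on the type I genes was not tested.

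**Figure D5:**
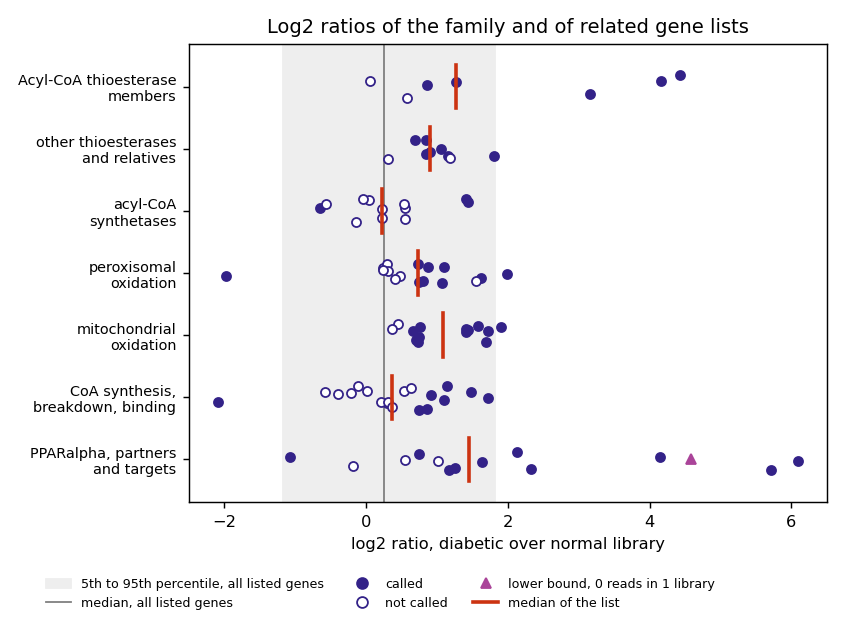
Log2 ratio, diabetic over normal library, of each gene with values in 7 gene lists, filled where called and open where not. The red lines are list medians (1.27 for the 7 thioesterase members, 0.23 for the synthetases), the grey band is the 5th to 95th percentile of all listed genes, the triangle is a lower bound for Cidea, and points are spread vertically only to separate them.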

How the data were processed

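The values that the authors deposited for the normal and the diabetic liver library, which they call TPM, are RPM values: tags of a gene per 1000000 clean tags, after comparison of the tags with RefSeq. The build named in the submitters' processing notes is mm9. The aligner and the treatment of shared tags are not given in the sources used here. A gene without tags was written as 0.01, and genes with a mean under 1 were left out by the authors (the smallest mean in the table was 1.005).

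The size of a step gave the worth of 1 read and so the whole reads behind each value (8513 of 8513 values above the placeholder came out whole in the normal and 8536 of 8537 in the diabetic library), and 3 reads, the floor used for a gene at 0, equal 0.292 and 0.222 TPM. The exact two-sided binomial test on these reads, adjusted by Benjamini-Hochberg, gave the FDR. Intervals are 95% Clopper-Pearson for ratios, exact Poisson for levels, Wilson for shares and the conditional exact interval of the odds ratio for differences between members. With 1 library per group no SD exists and no variation between mice enters a test.

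The members and gene lists were chosen with earlier results of these data known. Besides the members, the genes named in the text were, in each list, the most abundant gene and the 2 called genes with the largest log2 ratio in either direction among those with a mean of at least 10 TPM. Others are marked where they stand. Of 8551 identifiers, 8317 matched RefSeq (GRCm38.p6), which was used for names and gene order. The tag and coding sequence comparisons were added after the values had been seen, used 1 transcript per gene, and stand in place of a protein comparison that was not made.

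On simulated reads of 8551 genes at these depths, 17102 of 17102 values were recovered. Of 200 genes changed 3-fold, 160 were called, and all 86 of these that averaged 10 TPM or more. No unchanged gene was called (0), but the simulated reads held counting error only. They therefore say nothing on false calls from variation between mice. With an assumed variation between samples of 20% in the test alone, 38 of the 200 were called, and with 40%, 0. Alternatives were 4 scalings, a fold of 2, the Audic-Claverie test, genes averaging 5 TPM or more, pseudocounts of 0.1 TPM and of 1 TPM, the assumed variation, and other placements of Acot13. The tools were Biopython 1.88, scipy 1.17.1, numpy 2.4.6, pandas 2.3.3 and matplotlib 3.10.9 under Python 3.11.15.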

Additional observations from a re-analysis of the deposited data

How the results depend on the processing

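The 4 scalings (sum of listed genes, TMM, median ratio and upper quartile) lowered every log2 ratio by 0.25 to 0.31, and called 1135 to 1272 genes higher and 1147 to 1262 lower in place of 1955 and 700, so 47.4 to 52.6% of the called genes were higher. The Acot11 ratio turned to -0.21, -0.20, -0.25 and -0.22 under them, and Acot8 was no longer called with the median ratio (0.56). Between 4 and 5 members were called under the scalings. With an assumed variation between samples of 20%, chosen after the data had been seen, 3 members were called (Acot2, Acot3 and Acot4), beside 343 genes higher and 111 lower in all. With 40%, 2 were called (Acot2 and Acot3), beside 36 and 19. At 40% 0 of 200 simulated 3-fold changes were called, so that setting says little on changes of that size. A pseudocount of 1 TPM took the log2 ratio of Acot2 to 2.95, of Acot3 to 3.34 and of Acot4 to 2.35. With Acot13 counted in the cytosol, the cytosolic share was 69.3% in the normal and 64.9% in the diabetic library, and the mitochondrial share 0.330% and 3.11%. Without Acot13, the shares were 37.9% and 25.3% for the cytosol, 0.667% and 6.62% for the mitochondria and 61.5% and 68.1% for the peroxisome. In both settings the mitochondrial share is Acot2 alone, which had to differ. Another 34 recomputed counts and shares stayed within 1.5 times or within the counting interval of the main value, and 38 ratios (single members, and the type I sum without Acot2) kept their direction and, where tested, their side of the threshold. The ratios of sums with Acot13 in the cytosol or without Acot2 were added after the data had been seen. The planned count model at a set variation was not run, since the reads here were computed from deposited normalized values and such models were kept to deposited counts. No paired analysis was possible because each group has 1 library. The normal levels of Acot2, Acot3, Acot4 and Acot11 rest on 5 to 22 reads, and smaller changes of these genes were not detectable at this depth.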

Other observations

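Coenzyme A, the other product of the thioesterase reaction, has its own genes, and 19 of 20 genes for its synthesis, breakdown and binding had values, of which 7 were called higher and 1 lower, beside 22.9% and 8.19% of all listed genes. Their median log2 ratio was 0.36, and 0.06 to 0.11 under the other scalings, with 5 to 6 called higher and 1 to 2 lower beside 13.3 to 14.9% and 13.4 to 14.8% of all genes. Nudt7, which encodes a peroxisomal enzyme that breaks down coenzyme A and its esters, fell from 496.37 TPM (5102 reads) to 116.97 TPM (1580 reads), a log2 ratio of -2.09. This was the gene of the list with the largest change, in the compartment where Acot3, Acot4 and Acot8 rose. Dbi, the acyl-CoA binding protein and the most abundant gene of the list, rose from 1444.95 to 2625.95 TPM, and Vnn1, a pantetheinase that recycles the coenzyme A precursor, from 11.58 to 38.35 TPM. Of the other breakdown genes, named after their values had been seen, Nudt19, also peroxisomal, rose from 34.05 to 64.26 TPM, while Nudt8 was at 9.34 and 14.51 TPM and was not called. Of the 7 synthesis genes, likewise named afterwards, 3 were called higher, Pank2 from 7 to 15.47 TPM, Ppcs from 19.75 to 55.37 TPM and Coasy from 123.07 to 206.47 TPM. The other 4 were not called, with Pank1 at 33.66 and 48.71 TPM, Pank3 at 10.22 and 12.51 TPM, Pank4 at 6.23 and 4.74 TPM and Ppcdc at 8.85 and 10.29 TPM.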
